A study of Mus musculus with 8 samples.

Results

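The genes described here encode the protein components of the cytosolic ribosome. Of 22183 genes in the deposited table, 86 carried a symbol of the ribosomal protein series (Rpl or Rps followed by a digit, Rplp0, Rplp1, Rplp2 or Rpsa) once S6 kinase symbols, symbols marked -ps and Rps19bp1 were left out. Of these, 77 were the standard genes, 46 of the large and 31 of the small subunit, and 9 were paralogs, which are given apart. RNA of whole mouse liver had been sequenced in 8 libraries, 4 labelled Stat3flox/flox (control) and 4 labelled Stat3flox/flox;Alb-Cre (knockout), so both genotypes carried floxed Stat3 and the knockout also carried Cre under the albumin promoter, which is active in hepatocytes. All mice had received 20% alcohol at 15 µL per g by gavage daily for 2 weeks, and no group without alcohol was analysed here. Age, sex and strain background are not in the labels used here. Whether each library is a different mouse is not in the labels. The p-values therefore cover no more than the variation among the libraries given, which may in part be technical. Y-linked counts ran from 1 to 1672 in controls and from 2 to 934 in knockouts, so the libraries of a group were not all repeats of 1 sample.

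The ribosome is built from ribosomal RNA and one copy of nearly every ribosomal protein per particle. Cells therefore make these proteins in near-equal amounts, and surplus copies are degraded. Their messenger RNAs are short and abundant and begin with a tract of pyrimidines (the TOP motif), through which the mTORC1 pathway sets their translation, mainly without changing how much of the messenger is present. In liver, the rate of protein synthesis is high because hepatocytes secrete most plasma proteins. The comparison asks whether these messengers differed in abundance between livers with and without Stat3 in hepatocytes, under alcohol.

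The promoters of the members are shown first, and their part in the levels given below was not tested. RefSeq promoters on GRCm38.p6 (250 bases before to 50 after the annotated start) were matched by symbol for 57 of the 77 members and all 9 paralogs. At least one of the string CTTTCC, the string CTTTTC and the string CTCTTT, which can overlap one another, lay on the coding strand between 40 bases before and 50 after a start in 34 of 57 members (59.6%), against 11.3% of 27025 genes with a promoter in the table. The string CCGGAAG, the core recognised by ETS factors such as GABP, was found on either strand of the whole window in 24 members (42.1%), against 9.93% of all genes. TTCCNGGAA, a form of the STAT recognition element, was found on either strand in 1 member (1.75%), against 1.35% of all genes. These matches describe letters, not binding. The 6 stretches below, each 50 bases before to 20 after the start, are examples in which the tract lies at or beside the annotated start, with the matched letters in capitals. They lie on GRCm38.p6 at chr14:18270967-18271036 minus strand (Rpl15), chr7:4792915-4792984 plus strand (Rpl28), chr11:114668530-114668599 plus strand (Rpl38), chr4:86857348-86857417 minus strand (Rps6), chr7:3703991-3704060 plus strand (Rps9) and chr17:27635225-27635294 minus strand (Rps10).
Rpl15: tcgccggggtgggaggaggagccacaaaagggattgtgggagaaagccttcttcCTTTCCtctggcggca
Rpl28: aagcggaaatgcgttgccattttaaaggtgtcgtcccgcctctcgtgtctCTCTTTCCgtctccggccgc
Rpl38: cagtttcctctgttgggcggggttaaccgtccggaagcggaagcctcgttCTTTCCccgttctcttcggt
Rps6: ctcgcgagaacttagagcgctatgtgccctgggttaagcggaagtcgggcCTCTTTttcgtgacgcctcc
Rps9: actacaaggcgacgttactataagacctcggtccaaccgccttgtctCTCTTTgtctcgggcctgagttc
Rps10: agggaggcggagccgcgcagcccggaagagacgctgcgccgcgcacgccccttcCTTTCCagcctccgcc

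Members with and without one of the tract strings had median log2 fold changes (knockout against control) of 0.05 and 0.08, and members with and without CCGGAAG had medians of 0.07 and 0.05.

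The libraries held 15998394 to 19474699 counts. Stat3, a transcription factor of the interleukin-6 pathway and the deleted gene, was at 75.1, 72.9, 46.8 and 72.1 CPM (counts scaled to the library total, with TMM factors) in controls 1 to 4 and at 27.3, 25.1, 29.7 and 28.4 CPM in knockouts 1 to 4. The groups did not overlap, and the log2 fold change of Stat3 was −1.27 with an SE of 0.17. The adjusted p by edgeR's quasi-likelihood method was 0.0469, a call that was lost without any 1 of controls 1, 2 and 4 and knockouts 2, 3 and 4 (adjusted p 0.0564 to 0.227). Hepatocyte markers (8 genes) summed to at least 105900 CPM in every library. The summed markers of 8 other cell types or states were also above 0 in every library. None of the marker genes that passed the filter on low counts was called between the genotypes. Only 6 of 10 lymphocyte and 2 of 6 neutrophil markers passed that filter. The 10 lymphocyte markers summed to 12.9 to 28.6 CPM in control and 82.2 to 633 CPM in knockout, the one list whose groups did not overlap. In bulk tissue, fewer cells of a type and less RNA per cell cannot be told apart. The Y-linked transcripts Ddx3y, Eif2s3y, Kdm5d and Uty summed to 5, 1, 1672 and 294 counts in controls 1 to 4 and to 2, 728, 934 and 842 in knockouts 1 to 4.

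No ribosomal protein gene passed the test between the genotypes. All 77 members passed the filter on low counts. By edgeR's quasi-likelihood method, 0 rose and 0 fell with an adjusted p below 0.05, a threshold that 0.0342% of 11692 genes passed. At an unadjusted p under 0.05 the count was also 0 of 77 members, beside 14.0% of all genes (649 higher and 990 lower). DESeq2 called 0 members, beside 2.3% of all genes. In limma-voom 0 of all genes were called, so its 0 members says nothing about the members in particular. In no member did the 4 knockout libraries lie wholly above or below the 4 controls, which was the case for 7.08% of all genes (3.22% higher and 3.86% lower). At an adjusted p under 0.1 the count of members was again 0, beside 0.676% of all genes. The smallest adjusted p among members was 0.492. This absence of calls does not show equal levels, so the intervals are given: log2 fold changes ran from −0.32 to 0.36, the 95% intervals of all 77 members lay between −0.84 and 0.91, and those of 43 members lay within −0.58 and 0.58. All 77 intervals lay within −1 and 1, as did 68.8% of those of all genes tested. Standard errors of the members ran from 0.14 to 0.29 (median 0.21) and the median over all genes was 0.23.

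**Figure D1:**
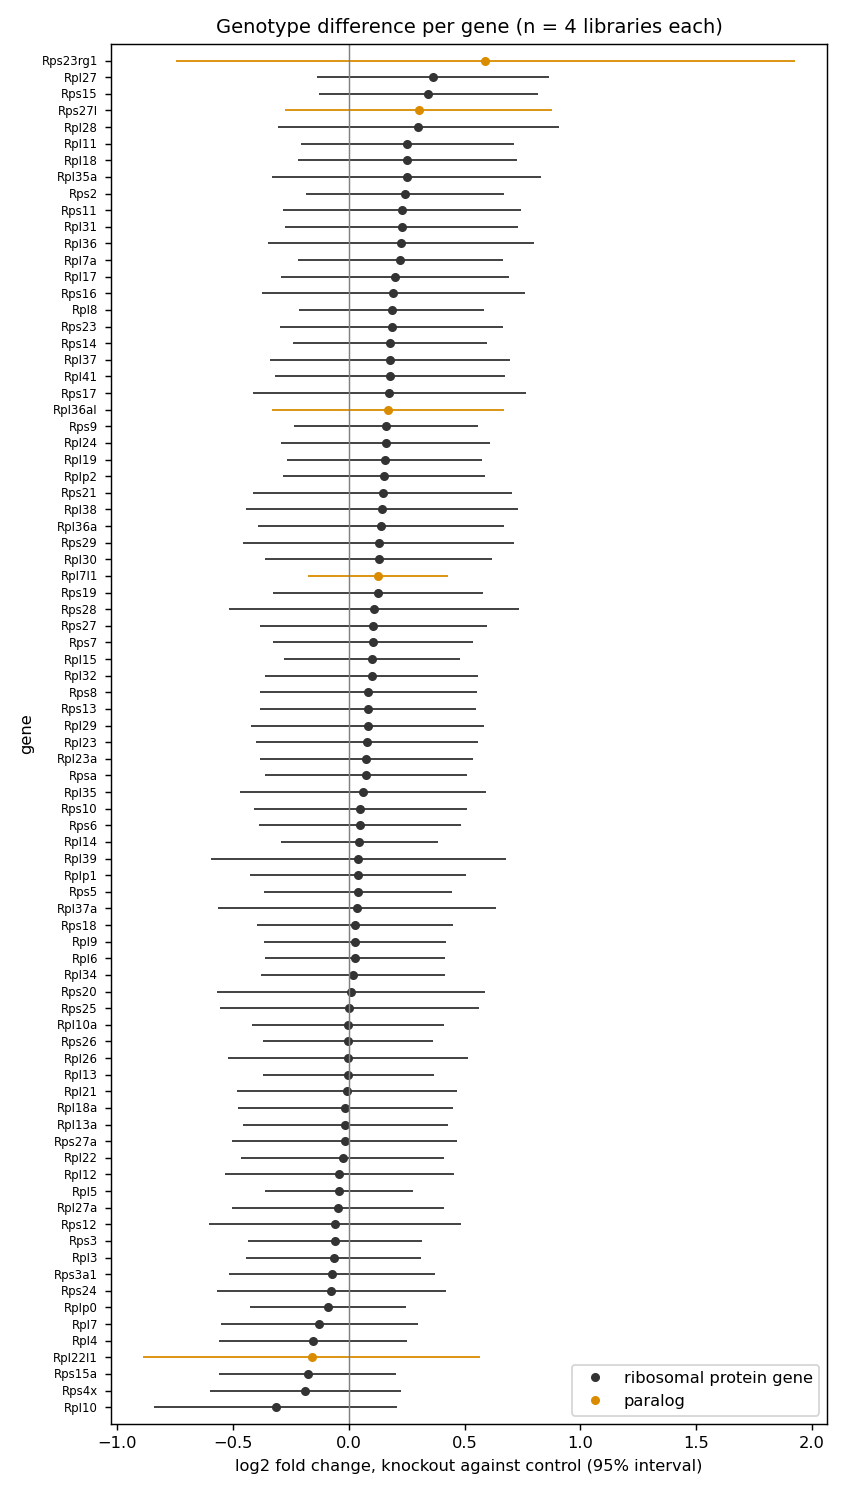
Log2 fold change of each tested ribosomal protein gene (black) and paralog (orange), knockout against control, with the 95% interval from edgeR's quasi-likelihood fit (n = 4 libraries each). Every interval includes 0, and the members' values run from −0.32 (Rpl10) to 0.36 (Rpl27).

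The median log2 fold change of the members was 0.08, beside −0.03 for all genes tested, with 54 members above 0 and 23 below. It depended on single libraries. Without control 1 it was −0.06, without knockout 1 it was −0.02, and without control 3 it was 0.24. Without control 3, 5 members were higher and 1 was lower at an unadjusted p under 0.05 (beside 21.1% of all genes in that fit), and the smallest adjusted p among members was 0.166. Without controls 2 and 3, 2 members had an unadjusted p under 0.05, beside 18.9% of all genes in that fit. Among the other libraries left out in turn, no fit gave a member an unadjusted p under 0.05. When the fit also held a term for detected Y-linked reads, the median was 0.04.

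Ribosomal protein messengers together took about the same share of the library in both genotypes. They held 1.34, 1.16, 1.81 and 1.84% of all counts in controls 1 to 4 and 1.797, 1.495, 1.44 and 1.48% in knockouts 1 to 4. Each share's 95% Wilson interval was at most 0.0062 percentage points to either side, which covers counting error only. The knockouts lay inside the range of the controls, and the mean share was 1.54% ± 0.34 for controls against 1.55% ± 0.16 for knockouts (SD, 4 libraries per genotype). Albumin and mitochondrial transcripts, which dominate liver libraries, varied beside them. Albumin took 12.9, 27.3, 8.53 and 10.5% of counts in controls and 13.8, 7.46, 8.10 and 8.49% in knockouts, and mitochondrially encoded genes took 12.9 to 20.7% in controls and 19.7 to 22.2% in knockouts. Outside those transcripts the share was 2.21% ± 0.35 in control and 2.24% ± 0.32 in knockout. The ratio of large to small subunit counts was 1.48 ± 0.06 in control and 1.46 ± 0.02 in knockout, highest in control 2 (1.56) and lowest in control 3 (1.43).

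**Figure D2:**
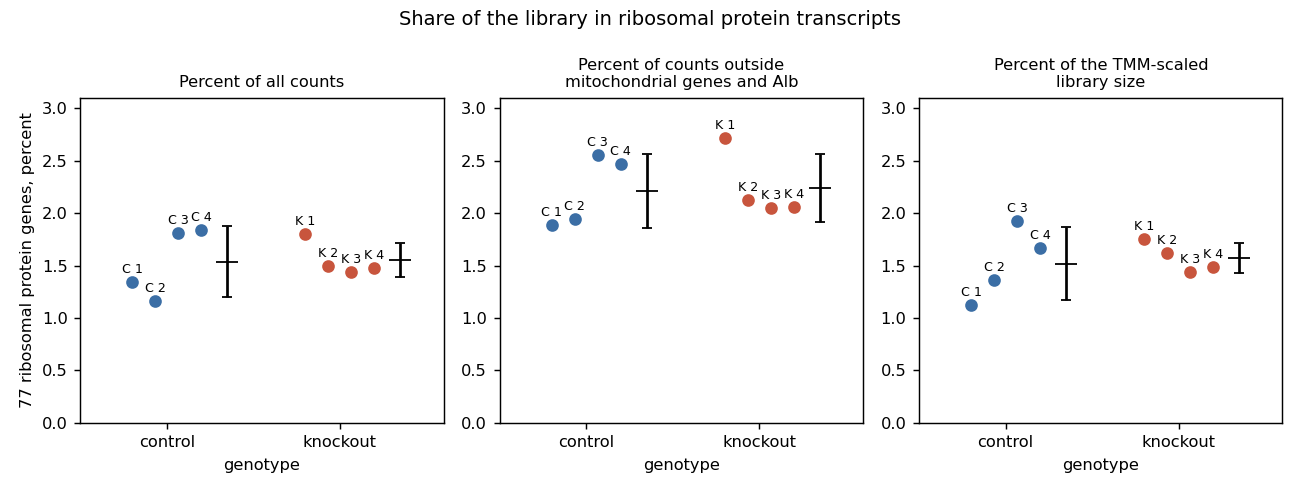
Share of each library in the 77 ribosomal protein genes, in percent of 3 denominators, by genotype. Points are libraries (C control, K knockout) and bars are mean ± SD of 4. Knockouts of all counts lie between 1.44 and 1.797%, and controls between 1.16 and 1.84%.

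The libraries differed from each other more than the genotypes did, and most members moved together. The mean level of the members, in log2 CPM relative to each gene's mean over the 8 libraries, was −0.48, −0.22, 0.36 and 0.14 in controls 1 to 4 and 0.25, 0.09, −0.09 and −0.04 in knockouts 1 to 4. Control 1 was the lowest library of all for 66 of 77 members, and control 3 was the highest for 48. This order holds for TMM-scaled levels (factor 1.19 in control 1 and 0.85 in control 2). As a share of all counts, the members were lowest in control 2 (1.16%) and highest in control 4 (1.84%). Outside mitochondrial genes and albumin they were lowest in control 1 (1.885%) and highest in knockout 1 (2.72%). In control 1 only Rpl10, Rps3 and Rps4x lay above their own mean, and in control 3 Rpl10 was the only member below it. Over the 8 libraries, the Pearson correlation between 2 members had a median of 0.84 over 2926 pairs and was above 0 in 97.4% of them. These values describe 8 shared libraries, and the pairs share their scaling. The median SD of a member's log2 level was 0.40 over controls and 0.15 over knockouts, and 71 of 77 members varied more among controls. Over all genes the same medians were 0.36 and 0.24, and 72.6% varied more among controls. Knockouts 2, 3 and 4 also lay closer to each other in counts per gene than any 2 controls did. The median chi-square per gene between 2 libraries was 1.26 to 1.95 for these knockouts and 5.72 to 11.4 for controls. Y-linked reads were near 0 in controls 1 and 2 and knockout 1, whose member levels were −0.48, −0.22 and 0.25. The 8 Kupffer cell and macrophage markers summed to 435, 443, 25.8 and 251 CPM in controls 1 to 4 and to 85.0, 47.0, 62.0 and 64.4 CPM in knockouts, so they were lowest in control 3, where most members were highest. Markers of sinusoidal endothelium (6 genes) were also lowest in control 3, at 40.9 CPM against 69.96 to 108.5 CPM in the other controls and 82.9 to 95.5 CPM in knockouts. The 5 cholangiocyte markers were highest there, at 150.4 CPM against 35.3 to 56.1 CPM in the other 7 libraries. The part of these in the member levels was not tested.

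**Figure D3:**
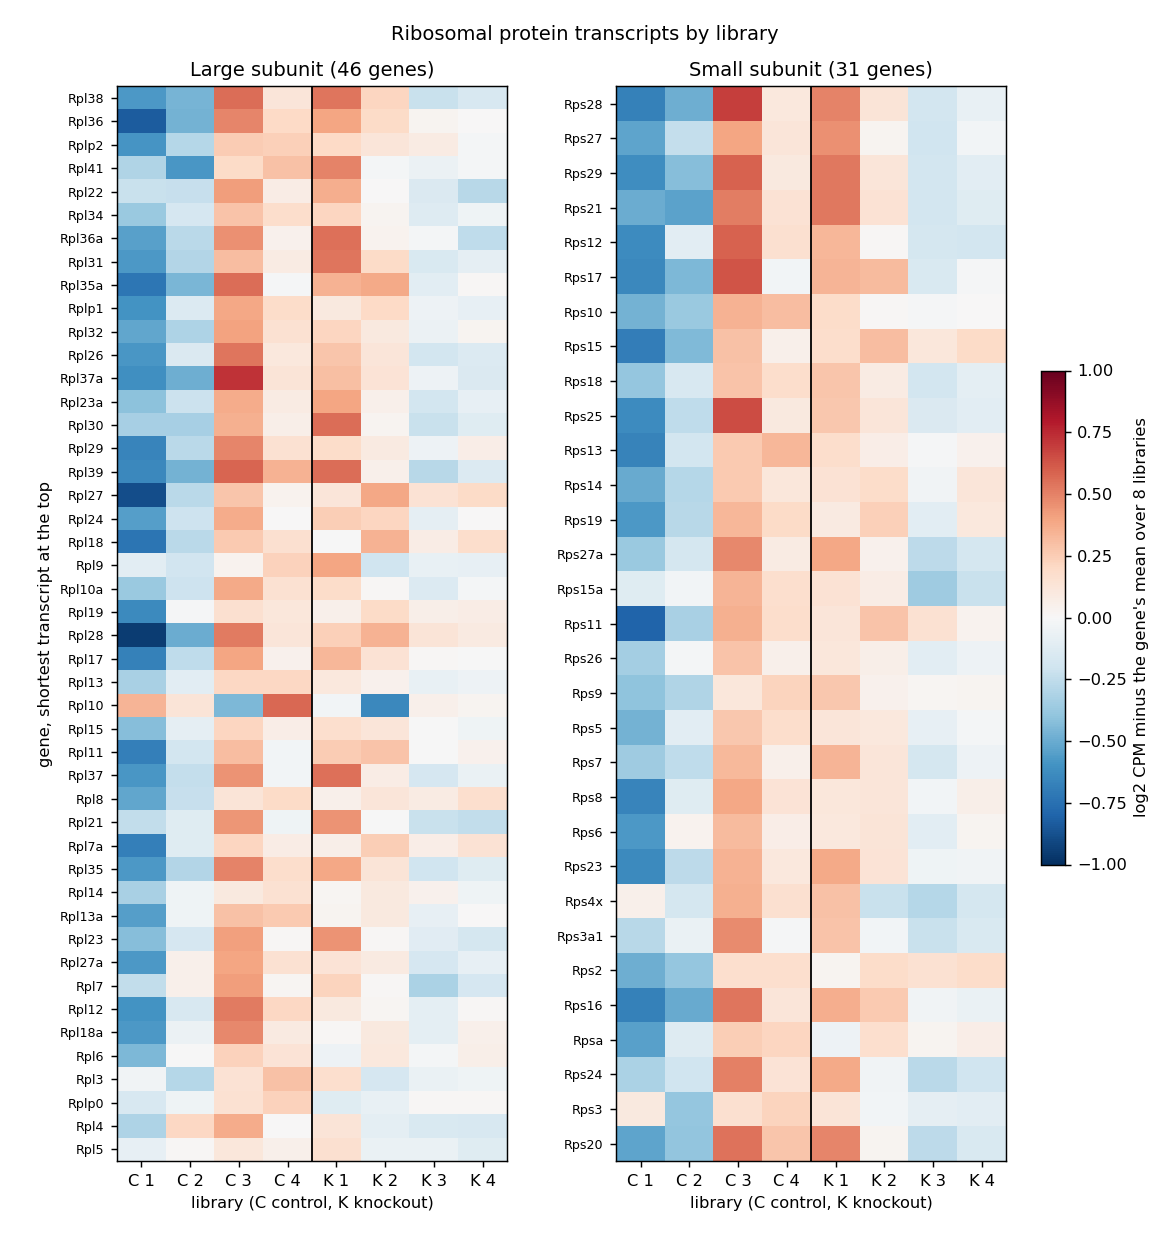
Level of each member in each library, as log2 CPM minus the gene's mean over 8 libraries, large subunit on the left and small subunit on the right, with the shortest transcripts at the top. Control 1 (C 1) is blue and control 3 (C 3) red in nearly every row, and Rpl10 runs against the others.

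Transcript length went with part of this variation. Transcript lengths (GENCODE M21, shortest basic transcript with the principal coding length) ran from 271 to 3706 bases with a median of 729. The 38 members under that median lay below the 39 longer ones in control 1 (−0.54 against −0.42) and control 2 (−0.30 against −0.15). They lay above them in control 3 (0.41 against 0.30), knockout 1 (0.31 against 0.19) and knockout 2 (0.13 against 0.06). In control 4 and knockouts 3 and 4 the short-minus-long difference lay between −0.02 and 0.0022. The short-minus-long difference averaged −0.04 ± 0.12 over controls and 0.04 ± 0.07 over knockouts (SD, 4 libraries per genotype), so the groups overlapped. Median log2 fold changes between genotypes were 0.11 for the shorter and 0.04 for the longer members.

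**Figure D4:**
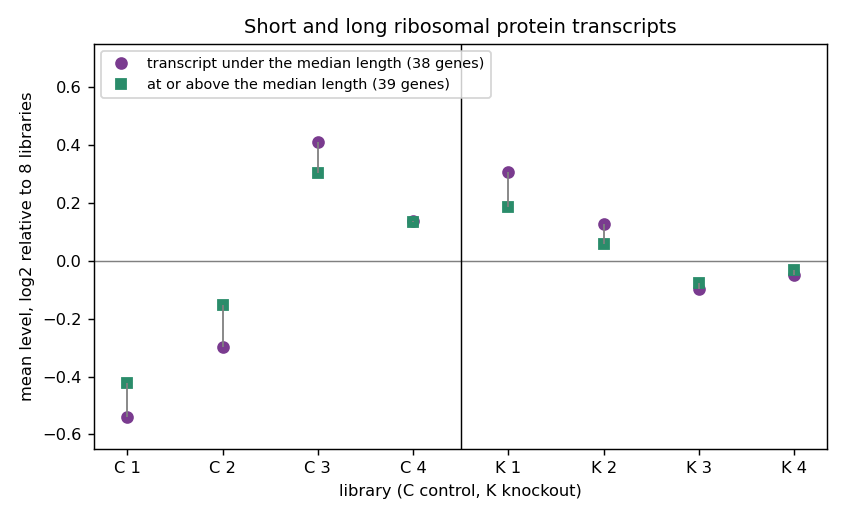
Mean level of members with short and long transcripts in each library, in log2 CPM relative to each gene's mean over 8 libraries. Short transcripts lie below long ones in controls 1 and 2 (C 1, C 2) and above them in control 3 (C 3) and knockouts 1 and 2 (K 1, K 2).

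Among large subunit genes, Rpl27 (chromosome 11, 101442298 to 101445529, GRCm38) had the highest log2 fold change, 0.36 (SE 0.23, adjusted p = 0.492). It was at 65.2, 99.9, 145.8 and 123 CPM in controls 1 to 4 and at 131, 158, 133 and 138 CPM in knockouts 1 to 4. Control 3 lay among the knockouts and the other controls below them. Rpl28, whose promoter tract is printed above, had the largest spread over the 8 libraries (SD 0.48 log2). Its controls held 66.1, 90.7, 183 and 139 CPM and its knockouts 151, 163, 139.7 and 136 CPM, so the controls enclosed the knockouts. Rpl5 had the smallest spread (SD 0.10 log2), at 225 to 258 CPM in controls and 219 to 265 CPM in knockouts. Rpl5 and Rpl11 bind 5S ribosomal RNA and, outside the ribosome, the ubiquitin ligase Mdm2. Rpl11 was at 126, 178, 251 and 198 CPM in controls and at 240.5, 246.5, 202 and 208 CPM in knockouts (log2 fold change 0.25, SE 0.21), with control 1 apart at the low end. Rpl18 (0.25, SE 0.21) and Rpl7a (0.22, SE 0.20) had similar values. On the other side stood Rpl4 (−0.16, SE 0.18) and Rpl7 (−0.13, SE 0.19). Rpl13a, whose introns hold small nucleolar RNAs, had a log2 fold change of −0.02 (SE 0.20).

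Rplp0, Rplp1 and Rplp2 form the stalk of the large subunit, which recruits elongation factors. Rplp0 had a log2 fold change of −0.09 (SE 0.15), with 299 ± 36.6 CPM over controls and 280.3 ± 12.6 CPM over knockouts (SD, 4 libraries per genotype). Rplp1 went from 237.5 ± 66.7 to 244 ± 22.7 CPM (0.04, SE 0.21) and Rplp2 from 63.9 ± 17.5 to 71.0 ± 4.39 CPM (0.15, SE 0.20). None of the 3 differed beyond the spread of the controls.

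In the small subunit, Rps15 (chromosome 10, 80292453 to 80294114), a protein of the subunit's head, was at 87.3, 104, 173 and 146 CPM in controls and 159, 175, 153 and 161 CPM in knockouts. Control 3 again lay among the knockouts, and the log2 fold change was 0.34 (SE 0.21, adjusted p = 0.492). Rps2, which lies near the entry of the messenger channel, went from 525 ± 125 to 621 ± 30.9 CPM (0.24, SE 0.19). Rpsa, also known as the laminin receptor precursor, had a value of 0.07 (SE 0.20). Rps6, the substrate of the S6 kinases, was at 374 ± 89.5 and 387 ± 27.7 CPM (0.05, SE 0.20). Rps27a, made as a fusion with ubiquitin, was at 209 ± 55.1 and 206 ± 43.2 CPM (−0.02, SE 0.22). Rps15a had the smallest p on the lower side of this subunit (log2 fold change −0.18, SE 0.17, adjusted p = 0.670).

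Rps4x and Rpl10 are 2 of the 4 members on the X chromosome. Rps4x was at 253.5, 217, 314 and 273 CPM in controls and at 300.1, 210.2, 201 and 217 CPM in knockouts (−0.19, SE 0.19, adjusted p = 0.673). Knockout 1, where Y-linked reads were near 0, stood above the other knockouts, while controls 1 and 2, where they were near 0 too, were the lowest controls. The part of the Y-linked reads in this was not tested.

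Rpl10, which joins the large subunit late in assembly and completes it, ran against the other members. It was at 213.5, 185, 124 and 251 CPM in controls and at 166, 108, 175 and 172 CPM in knockouts (log2 fold change −0.32, SE 0.24, adjusted p = 0.566). Its correlation with the mean of the other members over the 8 libraries was −0.48, whereas the median of the members was 0.93 and the next lowest value was 0.45 (Rps3). The table also held Rpl10-ps3, a copy on chromosome 9 whose symbol marks it as a pseudogene, at 231, 429, 676 and 460 CPM in controls and 485, 599, 452 and 498.5 CPM in knockouts. GENCODE M21 nevertheless gives Rpl10-ps3 a protein-coding transcript, with the same coding length as Rpl10 (642 bases). The counts of Rpl10-ps3 were above those of Rpl10 in every library, by 1.08 to 5.45 times in controls and 2.58 to 5.54 times in knockouts. The division of reads between such near-identical copies is uncertain. Summed, the pair held 444, 615, 800 and 711 CPM in controls and 651.5, 707, 627 and 671 CPM in knockouts, with a correlation of 0.90 with the other members. With the counts added before the fit, an alternative chosen after seeing the data, the log2 fold change was 0.05 (SE 0.20, adjusted p = 0.929).

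**Figure D5:**
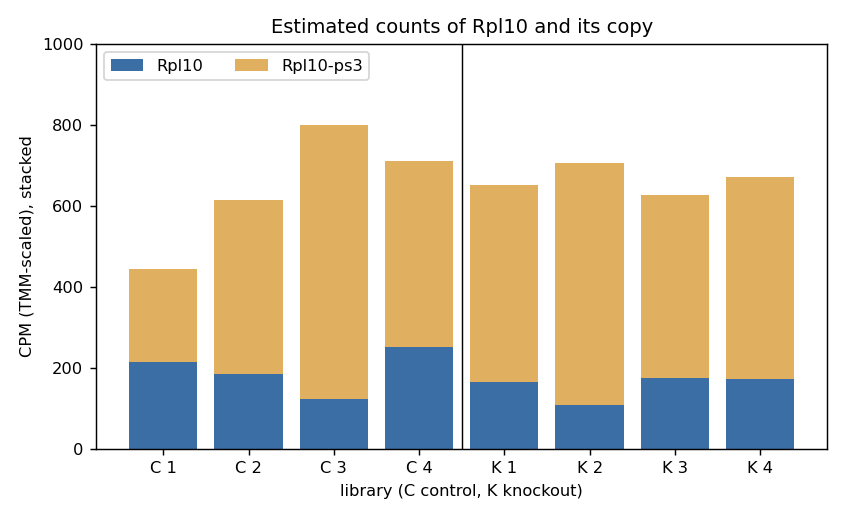
Level of Rpl10 (blue) and of Rpl10-ps3 (yellow), stacked, in TMM-scaled CPM for each library (C control, K knockout). Rpl10 alone is low in control 3 (124 CPM) and knockout 2 (108 CPM), where Rpl10-ps3 is highest (676 and 599 CPM).

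Per kilobase of transcript, mean levels over the 8 libraries were highest for Rps2 (574 CPM per kb), Rpl26 (564) and Rpl23a (513), both at the exit of the nascent chain tunnel. They were lowest for Rps20 (29.0 CPM per kb), Rps21 (66.3) and Rpl37 (72.4). The annotated Rps20 transcript used for this was the longest of all members, at 3706 bases for a coding length of 357, so its value per kb rests on that model. In CPM, mean levels ran from 25.6 to 573.3, and 32 members were among the 500 highest of the tested genes. The 6 genes with the extreme values per kb had log2 fold changes between genotypes of 0.24 for Rps2 and, for the other 5, of −0.0036 (Rpl26, whose sign turned under other scalings), 0.08 (Rpl23a), 0.01 (Rps20), 0.15 (Rps21) and 0.18 (Rpl37).

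Of the 9 paralogs, 5 were tested and none differed (smallest adjusted p 0.626, beside the same 0.0342% of all genes). Rpl3l, Rpl39l and Rps27rt held few counts, and Rpl10l held 0 counts in every library, which allows up to 0.129 to 0.213 CPM per library (3 counts). Rps27l, which p53 is known to induce in human and mouse cells, held more counts than Rps27 in all 8 libraries, but its annotated transcript is longer (499 against 345 bases). Per kb of transcript the ratio of Rps27l to Rps27 ran from 0.832 to 1.41, and Rps27l was below Rps27 in controls 1, 2 and 4 and knockout 1. The ratio of their counts was 1.26, 1.36, 1.72 and 1.38 in controls and 1.20, 2.04, 1.88 and 1.81 in knockouts. Knockouts 2, 3 and 4 were above every control and knockout 1 was the lowest library (exact two-sided permutation test of the log2 ratio, p = 0.257, adjusted over 5 ratios 0.5). Rpl22l1, the paralog of the RNA-binding protein Rpl22, was at 0.31 to 0.41 times the count of Rpl22 in controls and 0.27 to 0.49 times in knockouts (exact permutation p = 0.4, adjusted 0.5). In Rpl22l1 itself knockout 1 held 50.9 CPM and the other knockouts 19.5 to 21.7 CPM, beside 21.6 to 44.3 CPM in controls. The log2 fold change of Rpl22l1 was −0.16 (SE 0.33) with all libraries. The ratios of Rpl36al to Rpl36a (1.20 to 1.63 in controls, 1.08 to 1.91 in knockouts, exact permutation p = 0.8) and of Rpl7l1 to Rpl7 (0.074 to 0.115 and 0.074 to 0.131, exact permutation p = 0.286) did not pass either. For Rpl10-ps3 to Rpl10 the exact permutation p was 0.314 (adjusted 0.5). The smallest p that 70 assignments of 4 against 4 allow is 0.0286. Rps23rg1, a retrogene, was at 0.284 to 5.60 CPM (log2 fold change 0.59, SE 0.61).

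Fau and Rack1 are genes of the ribosome with other symbols. Fau, which encodes a small subunit protein fused to a ubiquitin-like protein, was at 75.1, 87.2, 141 and 130 CPM in controls and at 129.7, 129, 127 and 126 CPM in knockouts (log2 fold change 0.24, SE 0.21). All 4 knockouts lay between controls 2 and 4. Rack1, the signalling scaffold of the small subunit, had a value of −0.01 (SE 0.16), whose sign turned under other scalings.

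Genes that make and use ribosomes are given from lists, each with 0 members past an adjusted p of 0.05 (beside 0.0342% of all genes). Of 51 ribosome biogenesis factors, 2 were higher and 1 lower at an unadjusted p under 0.05, beside 5.55% and 8.47% of all genes, with a median of −0.06. The smallest p belonged to Utp20, a component of the small subunit processome (0.64, SE 0.25), Mrto4, a large subunit assembly factor (0.52, SE 0.21), and Nop58, a core protein of box C/D small nucleolar particles (−0.80, SE 0.33), all at adjusted p of 0.305 to 0.327. Of 16 tested genes of RNA polymerase I and its factors, 2 were lower at an unadjusted p under 0.05 and the median was −0.10. They were Taf1d, a subunit of the selectivity factor (−0.87, SE 0.30, adjusted p = 0.265), and Cd3eap, a polymerase subunit (−0.82, SE 0.31, adjusted p = 0.295). Rrn3, the initiation factor of this polymerase, had a value of −0.32 (SE 0.15). Of 22 elongation factor and other TOP messengers, 2 were lower at an unadjusted p under 0.05 and the median was −0.04. These were Eif4b, a cofactor of the initiation helicase (165 ± 30.4 to 122 ± 13.2 CPM, −0.43, SE 0.17, adjusted p = 0.313), and Hnrnpa1, an RNA-binding protein (−0.46, SE 0.19), and Eif3k had a value of 0.33 (SE 0.18).

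Of 28 initiation and mTORC1 genes, 0 passed an unadjusted p of 0.05 (median −0.07). The smallest p were those of Larp4, a poly(A)-binding regulator (−0.36), Tsc1, an mTORC1 inhibitor (−0.47), and Eif2b1, a subunit of the initiation exchange factor (0.36). The list for signalling of free ribosomal proteins through Mdm2 and p53 had 10 tested genes. At an unadjusted p under 0.05, Bbc3, a pro-apoptotic p53 target, was higher (0.69, SE 0.29, adjusted p = 0.322) and Mdm2 lower (−0.38, SE 0.17, adjusted p = 0.345). Mdm4 had a value of −0.30 (SE 0.15). Among 8 tested S6 kinase genes, Rps6ka3 had a value of −0.75 (SE 0.25, adjusted p = 0.253), Rps6kc1 one of −0.58 and Rps6ka1 one of 0.40. Of 78 mitochondrial ribosomal protein genes, 7 were higher and 0 lower at an unadjusted p under 0.05, and 69 were above 0, with a median of 0.23. Over all genes 5.55% were higher and 8.47% lower at that threshold. Without control 3, 30 of the 78 had an unadjusted p under 0.05, beside 21.1% of all genes in that fit, and their median was 0.38. Examples are Mrpl14 (from 19.8 ± 8.90 to 33.8 ± 3.51 CPM, 0.77, SE 0.27, adjusted p = 0.269, but 0.0375 without control 3), Mrpl53 (0.55, SE 0.19) and Mrpl34 (0.66, SE 0.24). The difference between the cytosolic and the mitochondrial set was not tested. The mean level of the mitochondrial set was −0.49, −0.20, 0.20 and −0.02 in controls 1 to 4 and −0.01, 0.27, 0.11 and 0.14 in knockouts 1 to 4, so control 1 was the lowest library in this set too, while the highest was knockout 2.

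Of 11610 tested genes outside the members and paralogs, 65 had a Pearson correlation over 0.9 with the mean member level across the 8 libraries. The 5 highest were Pfdn5, a prefoldin subunit (0.98), Tpt1, itself a TOP messenger (0.975), Cops9, a subunit of the COP9 signalosome (0.967), Cebpzos (0.965) and Cisd1, an iron-sulphur protein of the outer mitochondrial membrane (0.962). Tpt1 was at 1014, 1258, 1995 and 1452 CPM in controls and at 1729, 1590.0, 1348 and 1366 CPM in knockouts, with the same order of controls 1, 2, 4 and 3 from low to high as the members. Pfdn5 followed the same order of controls, from 37.6 to 81.9 CPM, with knockouts at 55.2 to 67.2 CPM. The log2 fold changes of these 5 genes between genotypes were 0.08 to 0.23, with adjusted p of 0.692 to 0.9.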

How the data were processed

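For 8 liver libraries, the authors deposited raw estimated counts (expected counts, 90.8% of the values above 0 exactly whole). The submitters' processing notes list CASAVA 1.8, Bowtie, TopHat2 and GRCm38. How reads were counted, with which annotation and whether by strand, is not stated in those sources. Estimated counts were rounded, filtered by filterByExpr, scaled by TMM and compared with the quasi-likelihood method of edgeR 4.0.16 (R 4.3.3, no covariate, Benjamini-Hochberg adjustment over 11692 genes, threshold 0.05). Each standard error is the fold change over the root of F, and intervals use the test's degrees of freedom. DESeq2 1.42.0 and limma-voom (limma 3.58.1) were alternatives. The procedure was tested on simulated data. Paralog ratios used counts plus 0.5 and an exact permutation test. Libraries held 15998394 to 19474699 counts and members 246 to 12674 counts per library, so counting error is small beside the spread between libraries. No 2 libraries of a group differed by as little as sampling noise (lowest median chi-square per gene 1.26, mean 10.7). The pairs were not equally far apart. Median chi-square was 1.26 to 1.95 among knockouts 2, 3 and 4, and 3.32 to 4.68 between knockout 1 and each of these. Among controls it was 5.72 to 11.4.

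Members and lists were chosen with earlier results of these data known. A gene of the lists is not reported here. Genes named are Stat3, the 6 members of smallest p on each side, the 3 highest and lowest per kb, stalk and ubiquitin-linked members, Rpsa, Rps6, Rpl5, Rpl11, Rpl13a, Rps4x, tested paralogs, the extremes of spread, 3 genes of smallest p per list and the 5 nearest genes. Rps3 and Rpl10-ps3, and the promoters shown, were chosen after their values were seen. Correlations are descriptions over 8 libraries.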

Additional observations from a re-analysis of the deposited data

Results flagged for a closer look

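In groups of 4 libraries, 10 of 128 groups examined had 1 library far from the other 3, where chance gives about 1 in 20. The groups share the same libraries and hold correlated values, so this comparison cannot show an excess over chance. Knockout 1 was the library apart in 8 of the 10. Among knockouts it was the highest in the members' share of counts (1.797% of all counts and 2.72% outside mitochondrial genes and albumin), in Rps4x (300.1 CPM), Rpl22l1 (50.9 CPM), Taf1d (5.44 CPM) and Cisd1 (114 CPM), and the lowest in Rps6ka1 (12.5 CPM) and Mrpl34 (13.8 CPM). Knockout 1 was also the only knockout without Y-linked reads, and the part of this was not tested. Knockout 2 was apart in Rpl10 (108 CPM, lowest). Control 3 was the lowest control in Stat3 (46.8 CPM).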

How the results depend on the processing

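The count of members called was 0 under every alternative run, and their median log2 fold change stayed between −0.06 and 0.24, within the spread between libraries. In some of these runs 0 of all genes were called, so the 0 members there says nothing about the members. They were limma-voom, the replicate block, and the fits without control 4 or without knockout 2, 3 or 4. The difference in the members' share of counts (knockout minus control, 0.0155 percentage points) ran from −0.111 to 0.116 with 1 library left out, and was not run under upper-quartile or DESeq2 factors. The number of all genes called, 4, was 1 without TMM factors, 11 with upper-quartile factors, 62 with no filter, 8 at 1 CPM in 4 libraries, 27 with a term for detected Y-linked reads, 187 without controls 2 and 3, 269 in DESeq2, 0 in limma-voom, 79 at an adjusted p under 0.1 and 0 to 324 with 1 library left out. Whether the replicate numbers pair the libraries is not in the labels, and the values do not decide it. Correlations of same-numbered deviations were 0.324, −0.247, 0.094 and 0.183, and 2 numbers had libraries that correlated best with each other. With the number as a block, 0 genes and 0 members were called. Stat3 missed 0.05 without TMM factors (−1.34), with the block (−1.25) and in limma-voom (−1.25), and was −1.41 to −1.20 with 1 library left out. In the other alternatives with all libraries its adjusted p was 0.0182 to 0.0498 in edgeR and 7.38e-08 in DESeq2.

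Of 1161 values of single genes under alternatives, 52 changed sign and 1 passed the threshold (Mrpl14 without control 3, 1.07); none of the other genes had been called. The cause was not tested. Rpl26 became 0.0133 with upper-quartile factors, 0.0099 with DESeq2's size factors and in DESeq2, 0.00 with no filter, 0.0389 with the replicate block, 0.0369 in limma-voom and 0.23 without controls 2 and 3. Without those controls Rpl4 was 0.0794, Rpl7 0.0641, Rps27a 0.15, Rpl13a 0.10 and Rack1 0.0017. Rps20 was −0.03 without TMM factors and Rplp1 −0.0047 with the Y-linked term. Rpl13a was 0.0194 with the block and 0.0175 in limma-voom. Rack1 was 0.0026 with upper-quartile factors, 0.0031 with DESeq2's size factors and in DESeq2, 0.0045 with the block and 0.0044 in limma-voom. Rpl10 was 0.0477 with Rpl10-ps3 added. With 1 library left out the ranges were −0.23 to 0.0075 (Rpl7), −0.15 to 0.21 (Rpl26), −0.0544 to 0.23 (Rpl23a), −0.17 to 0.23 (Rps20), −0.0204 to 0.38 (Rps21), −0.11 to 0.20 (Rplp1), −0.16 to 0.17 (Rps27a), −0.0564 to 0.17 (Rpsa), −0.0919 to 0.17 (Rps6), −0.16 to 0.088 (Rpl13a), −0.61 to 0.0508 (Rpl22l1), −0.0827 to 0.0738 (Rack1), 0.60 to 1.07 (Mrpl14), −0.054 to 0.31 (Pfdn5) and −0.0478 to 0.28 (Tpt1).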
